A study of Mus musculus with 12 samples.

Results

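The genes described here are 10 receptors and regulators of the T helper 1 (TH1) programme: Il12rb1, Il12rb2, Il18r1, Il18rap, Ifng, Ifngr1, Ifngr2, Tbx21, Stat4 and Cxcr3. They were chosen by name, with earlier results of these data known, as the rows of the deposited expression table that carry these symbols. All 10 were among the 24538 rows of the table, and all 10 were among the 12436 genes that passed a filter on low values (a mean log2 value of at least 3 over all libraries). Transcripts were sequenced from CD4+ T cells of C57BL/6 mice labelled female, taken from the spleen and the peripheral lymph nodes. All cells, KO and WT alike, were activated and cultured with interleukin 6 (IL-6) in the presence of a TGF-β receptor inhibitor. The knockout cells (KO) carried CD4cre together with Smad4fl/fl, and the control cells were wild type (WT). CD4cre deletes a floxed gene in all T cells that have passed through the stage of thymic development at which both CD4 and CD8 are present. The 12 libraries comprised 3 KO and 3 WT libraries at 12 h after the start of treatment, and 3 KO and 3 WT libraries at 3 h. The series addresses how SKI and SMAD4 restrain TH17 differentiation, and the genes described here belong to a different helper T cell programme, measured in the same cultures.

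TH1 cells are the helper T cells that make interferon gamma (IFN-γ) and act against intracellular microbes. Interleukin 12 (IL-12) signals through IL12RB1 and IL12RB2 to STAT4, interleukin 18 (IL-18) signals through IL18R1 and IL18RAP to MyD88 and NF-κB, and IFN-γ signals through IFNGR1 and IFNGR2 to JAK kinases. T-bet, the product of Tbx21, is the transcription factor that defines the lineage, and it drives both Ifng and the chemokine receptor Cxcr3. IL-6 acts mainly through STAT3 and is known as an inducer of the TH17 programme, and SMAD4 joins the receptor-activated SMAD proteins to carry TGF-β and BMP signals into the nucleus. Here no IL-12 or IFN-γ was named among the agents added to the cultures.

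The largest principal component, with 80.9% of the variance of the 12 libraries, separated the times. The 8 defining markers of CD4 T cells on the list used here all passed the filter, with summed levels of 17.01 to 17.17 in KO and 16.99 to 17.08 in WT at 12 h, and of 17.25 to 17.41 in KO and 17.25 to 17.33 in WT at 3 h. Smad4 differed between KO and WT by 0.02 ± 0.06 at 12 h and 0.00 ± 0.06 at 3 h, but a value for the whole gene does not check the loss of floxed exons. In the 4 libraries numbered replicate 2, Xist was at 4.55 to 5.70 and the Y-linked Ddx3y at 12.34 to 12.69. In the other 8 libraries Xist was at 15.08 to 16.27 and Ddx3y at 2.39 to 2.77, so the replicate 2 libraries go against the female label. Each group has 1 such library. The read depth of the libraries is unknown, because the table holds log2 values and no counts. The labels do not say that the 3 libraries of a group came from separate animals. By Xist and Ddx3y, replicate 2 came from other animals than replicates 1 and 3, and for replicates 1 and 3 this is unknown. The p-values measure the spread between these libraries, which holds this sex difference and may be technical in part.

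At 3 h, transcripts of 1 chain of each of the 3 receptors were lower in KO than in WT cells. Il18r1 was 4.63-fold lower, Ifngr1 2.55-fold lower and Il12rb2 2.18-fold lower, and no member was called higher. Calls required an adjusted p under 0.05 in limma with Benjamini-Hochberg adjustment over the 12436 genes. By this rule 3 of the 10 members were called lower, where 0.748% of all tested genes were called lower and 1.05% were called in either direction. All 10 differences were negative, with a median of -0.55 on the log2 scale, against a median of 0.00 over all tested genes. The 3 calls depend on how the spread is estimated, and none of them was made when only the 3 h libraries were fitted.

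**Figure D1:**
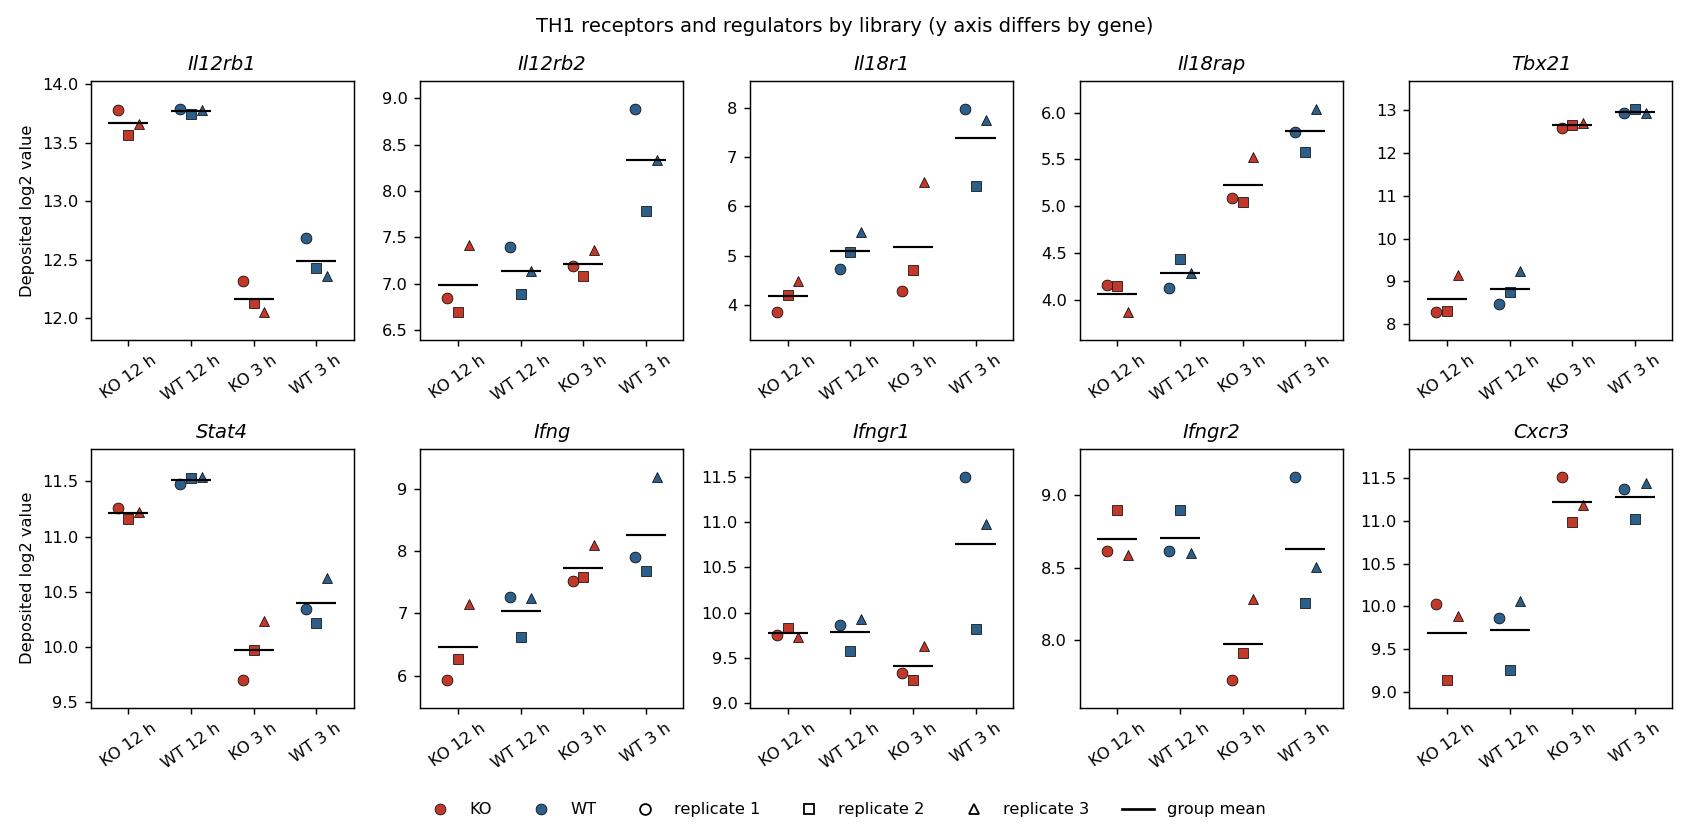
Deposited log2 values of the 10 genes, 1 panel per gene with its own y axis, by genotype and time on the x axis. Each point is a library, its shape gives the replicate number and the bar is the group mean (n = 3). Il12rb2 and Ifngr1 are lower in the 3 KO libraries at 3 h than in each of the 3 WT libraries at 3 h, while at 12 h the groups overlap.

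For the IL-18 receptor, Il18r1 encodes the chain that binds IL-18, and Il18rap the accessory chain needed for signalling. The genes lie next to each other on chromosome 1 (GRCm38), Il18r1 at 40465552 to 40500854 and Il18rap at 40515362 to 40551705, both on the plus strand. The deposited log2 values of Il18r1 at 3 h were 4.29, 4.71 and 6.50 in KO and 7.97, 6.42 and 7.75 in WT, for replicates 1, 2 and 3. The highest KO library lay just above the lowest WT library, so the groups overlapped. The difference was -2.21 ± 0.48 (SE; limma adjusted p = 0.0398), with a 95% interval of -3.23 to -1.19. Il18rap was 5.09, 5.05 and 5.53 in KO against 5.79, 5.58 and 6.04 in WT at 3 h. Every KO library was below every WT library, but the difference of -0.58 ± 0.21 was not called (limma adjusted p = 0.325).

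For the IL-12 receptor, Il12rb2 encodes the inducible chain that recruits STAT4, and Il12rb1 the chain shared with the IL-23 receptor. Il12rb2 lies on chromosome 6 at 67291318 to 67376188 on the minus strand, and Il12rb1 on chromosome 8 at 70808449 to 70821424 on the plus strand. Il12rb2 was 7.19, 7.08 and 7.36 in KO against 8.88, 7.79 and 8.34 in WT at 3 h. The KO libraries were tightly grouped and all lay below the WT libraries, which spread widely. The difference was -1.12 ± 0.25 (limma adjusted p = 0.0438), with a 95% interval of -1.65 to -0.59. Il12rb1 was 12.32, 12.13 and 12.06 in KO against 12.68, 12.43 and 12.36 in WT at 3 h. All 3 KO libraries were below all 3 WT libraries, by a smaller step than for Il12rb2. The difference of -0.32 ± 0.08 was not called (limma adjusted p = 0.0993), and it was called when the replicate number was a block (limma adjusted p = 0.0208), one of 22 alternatives over which the adjusted p ranged 0.0208 to 0.400.

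For IFN-γ and its receptor, Ifngr1 encodes the chain that binds IFN-γ, and Ifngr2 the chain that brings JAK2 to the complex. Ifngr1 lies on chromosome 10 at 19591949 to 19610229, Ifngr2 on chromosome 16 at 91547072 to 91565623, and Ifng on chromosome 10 at 118441046 to 118445892, all on the plus strand. Ifngr1 was 9.34, 9.26 and 9.63 in KO against 11.50, 9.81 and 10.97 in WT at 3 h. The groups did not overlap, and the WT values covered a range far wider than the KO values. The difference was -1.35 ± 0.28 (limma adjusted p = 0.0319), with a 95% interval of -1.94 to -0.77. Ifngr2 was 7.73, 7.91 and 8.29 in KO against 9.13, 8.26 and 8.51 in WT at 3 h, a difference of -0.65 ± 0.20 that was not called (limma adjusted p = 0.186). It was called without WT replicate 2 at 3 h (limma adjusted p = 0.0453), and over the 22 alternatives the adjusted p ranged 0.0453 to 0.622. The highest KO library was just above the lowest WT library. Ifng was 7.51, 7.58 and 8.10 in KO against 7.90, 7.68 and 9.19 in WT at 3 h. These groups overlapped, and the difference of -0.53 ± 0.36 was not called (limma adjusted p = 0.762), with a 95% interval of -1.29 to 0.24. A single WT library, replicate 3, was well above the other five.

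Among the regulators, Tbx21 lies on chromosome 11 at 97098071 to 97115331 on the minus strand, and Stat4, which carries the IL-12 signal, on chromosome 1 at 51987148 to 52107189 on the plus strand. Tbx21 was 12.57, 12.66 and 12.69 in KO against 12.92, 13.02 and 12.93 in WT at 3 h. Replicates differed little within each genotype and the groups did not overlap. The difference of -0.32 ± 0.19 was not called (limma adjusted p = 0.724). The SE of this gene is set by all 4 groups, and its SD was 0.065 in KO and 0.053 in WT at 3 h but 0.48 in KO and 0.39 in WT at 12 h. Stat4 was 9.71, 9.98 and 10.24 in KO against 10.34, 10.22 and 10.62 in WT at 3 h. The highest KO library was just above the lowest WT library, and the difference of -0.42 ± 0.12 was not called (limma adjusted p = 0.121). It was called without KO replicate 3 at 3 h (limma adjusted p = 0.0327) or WT replicate 2 at 3 h (limma adjusted p = 0.0493), and over the 22 alternatives the adjusted p ranged 0.0327 to 0.461.

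Cxcr3, the receptor for the IFN-γ-induced chemokines CXCL9 and CXCL10, lies on chromosome X at 101731535 to 101734269 on the minus strand. It was 11.52, 10.99 and 11.18 in KO against 11.38, 11.02 and 11.44 in WT at 3 h. The groups overlapped. The difference was -0.05 ± 0.22 (limma adjusted p = 0.973), with a 95% interval of -0.53 to 0.42.

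Counting by overlap rather than by the test, 5 of the 10 members had all KO values below all WT values at 3 h, where 5.99% of all tested genes did. These were Il12rb1, Il12rb2, Il18rap, Ifngr1 and Tbx21. Within replicate numbers, KO was below WT in all 3 pairs for 9 of the 10 members, where this held for 16.9% of all tested genes. The exception was Cxcr3. For Il18r1 the KO minus WT differences by replicate number were -3.68, -1.70 and -1.25. For Ifngr1 they were -2.16, -0.55 and -1.34, and for Il12rb2 they were -1.70, -0.70 and -0.97. For all 3 of these genes replicate 1 gave the largest difference. For Il12rb1 the 3 differences were -0.37, -0.30 and -0.30, the most even of the receptor genes.

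**Figure D2:**
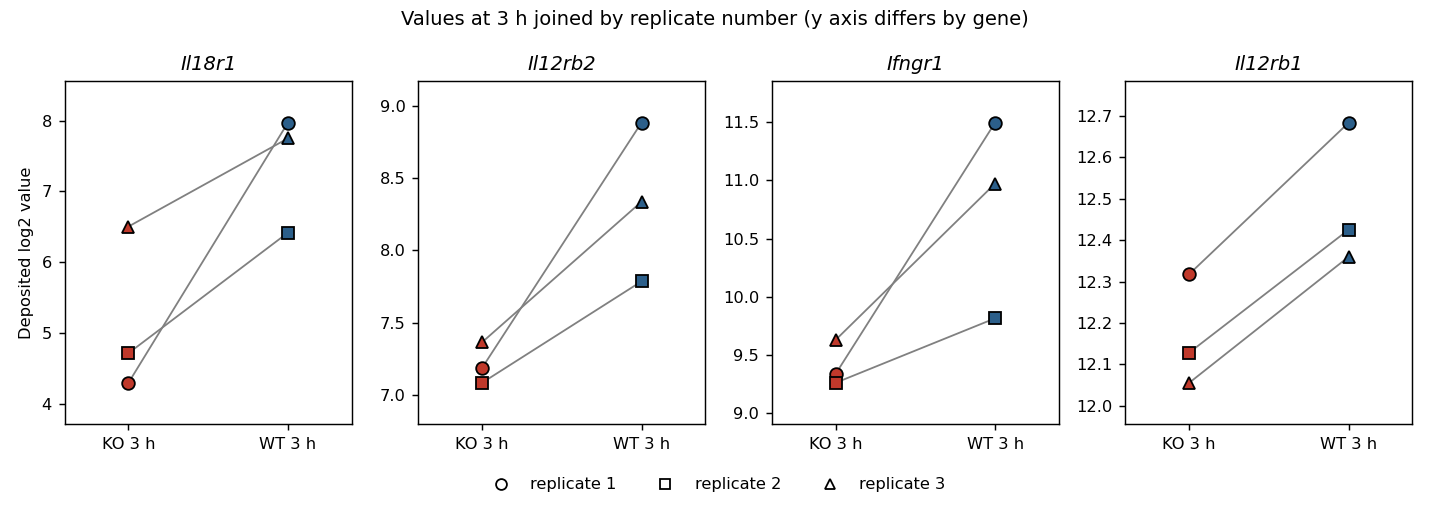
Deposited log2 values at 3 h of the 3 called receptor genes and of Il12rb1, with KO on the left and WT on the right of each panel and its own y axis; lines join libraries with the same replicate number. Every line rises to WT, with slopes that differ between replicates for Il18r1, Il12rb2 and Ifngr1 and are nearly parallel for Il12rb1.

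The 3 calls at 3 h were not firm. The count of called members was 0 when the prior did not follow the mean level, with no filter on low values, when only the compared groups were fitted, and with library weights. Leaving out 1 library at a time, the count ran 0 to 5: it was 0 without KO replicate 1 or 2 or WT replicate 1 or 3 at 3 h, or KO replicate 2 at 12 h, and 5 without WT replicate 2 at 3 h. In these fits the difference of Il18r1 ran -2.88 to -1.77, that of Ifngr1 -1.82 to -0.98 and that of Il12rb2 -1.40 to -0.85. All stayed negative. The call of Il12rb2 was lost in 10 of these 12 fits, all but those without KO replicate 3 at 12 h or WT replicate 2 at 3 h. That of Il18r1 was lost in 8, all but those without KO replicate 3 or WT replicate 1 at 12 h, or KO replicate 3 or WT replicate 2 at 3 h. That of Ifngr1 was lost in the 5 fits in which no member was called. With the replicate number as a block, 4 members were called lower, the 3 and Il12rb1, where 1.16% of all tested genes were. Without the 4 replicate 2 libraries, Il12rb2 differed by -1.34 (limma adjusted p = 0.0329), Ifngr1 by -1.75 (limma adjusted p = 0.00137) and Il18r1 by -2.46 (limma adjusted p = 0.0721, not called).

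Promoter sequence is shown for the 3 called receptor genes and for Il18rap, the partner and neighbour of Il18r1. Each runs from 250 bases before to 50 bases after the start site, 5′ to 3′ on the gene's strand, from RefSeq (GRCm38.p6). Entries matched 9 of the 10 members, and Il12rb1 had none. Il18r1 is at chr1:40465756-40466055 on the plus strand and its entry is the first of 3 listed starts. Il18rap is at chr1:40515112-40515411 on the plus strand, Il12rb2 at chr6:67376139-67376438 on the minus strand and Ifngr1 at chr10:19591699-19591998 on the plus strand. Capitals mark matches, on either strand, to any of 5 motifs: TTCNNNGAA (STAT proteins), CAGAC (the short SMAD site), GTCTAGAC (the SMAD palindrome), AGGTGTNA (T-box factors) and TGANTCA (AP-1).
Il18r1: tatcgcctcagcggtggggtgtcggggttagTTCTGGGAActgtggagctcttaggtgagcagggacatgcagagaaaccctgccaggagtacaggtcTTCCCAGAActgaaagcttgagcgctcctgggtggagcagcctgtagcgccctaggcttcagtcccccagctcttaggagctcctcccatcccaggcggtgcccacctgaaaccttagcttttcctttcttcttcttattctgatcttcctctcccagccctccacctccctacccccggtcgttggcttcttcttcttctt
Il18rap: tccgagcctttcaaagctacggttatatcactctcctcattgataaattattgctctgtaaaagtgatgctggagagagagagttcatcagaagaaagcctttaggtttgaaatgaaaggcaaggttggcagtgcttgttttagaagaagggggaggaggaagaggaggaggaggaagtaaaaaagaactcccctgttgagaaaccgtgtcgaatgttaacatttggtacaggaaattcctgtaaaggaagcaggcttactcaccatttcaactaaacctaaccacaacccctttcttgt
Il12rb2: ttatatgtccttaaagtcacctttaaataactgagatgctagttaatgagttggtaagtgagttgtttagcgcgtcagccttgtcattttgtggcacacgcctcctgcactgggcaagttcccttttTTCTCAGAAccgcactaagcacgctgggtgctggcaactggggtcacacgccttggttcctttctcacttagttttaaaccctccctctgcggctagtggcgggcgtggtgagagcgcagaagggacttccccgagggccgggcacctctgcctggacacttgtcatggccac
Ifngr1: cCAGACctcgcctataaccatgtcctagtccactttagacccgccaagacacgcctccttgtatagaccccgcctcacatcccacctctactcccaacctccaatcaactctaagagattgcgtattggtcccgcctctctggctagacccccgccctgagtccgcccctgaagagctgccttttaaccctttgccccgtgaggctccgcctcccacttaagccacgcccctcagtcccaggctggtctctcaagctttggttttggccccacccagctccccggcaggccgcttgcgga

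The STAT motif matched the promoters of 3 of the 9 members: Il18r1 at -219 and -152, Il12rb2 at -123 and Ifng at -249, relative to the start site. It matched 8.3% of 32851 RefSeq promoters of the same length. The short SMAD site matched 2 of the 9, Ifngr1 at -249 and Stat4 at -38 and -9, where 49.6% of all promoters held it. The SMAD palindrome, the T-box motif and the AP-1 motif matched none of the 9, against 0.213%, 3.03% and 7.81% of all promoters. No match overlapped one of another motif. The Stat4 window, at chr1:52007990-52008289, belongs to 1 of 2 listed starts. The whole windows of Stat4 and Il18r1 lie inside the gene intervals given above, which begin at an earlier base. These are matches of letters in 1 window per gene, and no binding was measured.

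At 12 h no member was called by limma in either direction, where 0.667% of all tested genes were called. By unadjusted limma p under 0.05, 1 member (Stat4) passed, at rank 474 by p among all tested genes. Il18r1 did not pass and stood at rank 1076. The share of all tested genes that passed this rule was not counted, so the passing of Stat4 does not set the members apart. All 10 differences were again negative, with a median of -0.18. Il18r1 was 3.87, 4.20 and 4.48 in KO against 4.72, 5.07 and 5.49 in WT at 12 h. The groups did not overlap, and the difference of -0.91 ± 0.48 was not called (limma adjusted p = 0.881). Stat4 was 11.26, 11.16 and 11.23 in KO against 11.48, 11.53 and 11.54 in WT at 12 h, 2 narrow groups that did not overlap. Its difference of -0.30 ± 0.12 was not called (limma adjusted p = 0.563), except when only the 12 h libraries were fitted (limma adjusted p = 0.0406), and over the 22 alternatives the adjusted p ranged 0.0406 to 1. Groups failed to overlap with KO lower for these 2 of the 10 members, against 7.41% of all tested genes.

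The other receptor genes were close between genotypes at 12 h. Ifngr1 was 9.75, 9.83 and 9.73 in KO against 9.86, 9.58 and 9.93 in WT, a difference of -0.02 ± 0.28 (limma adjusted p = 1, 95% interval -0.61 to 0.57). Il12rb2 was 6.85, 6.70 and 7.41 in KO against 7.39, 6.89 and 7.13 in WT, a difference of -0.15 ± 0.25 (limma adjusted p = 1, 95% interval -0.68 to 0.38). Both sets of values overlapped. Ifngr2 differed by -0.01 ± 0.20, Il12rb1 by -0.10 ± 0.08 and Il18rap by -0.22 ± 0.21 at 12 h, none of them called. Tbx21 was 8.30, 8.32 and 9.15 in KO against 8.47, 8.75 and 9.24 in WT, and Ifng was 5.94, 6.27 and 7.15 in KO against 7.26, 6.62 and 7.24 in WT at 12 h. In both genes the groups overlapped, and the differences of -0.23 ± 0.19 for Tbx21 and -0.59 ± 0.36 for Ifng were not called. Cxcr3 differed by -0.04 ± 0.22 at 12 h. Within replicate numbers, KO was below WT in all 3 pairs for 5 of the 10 members at 12 h, where this held for 17% of all tested genes.

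**Figure D3:**
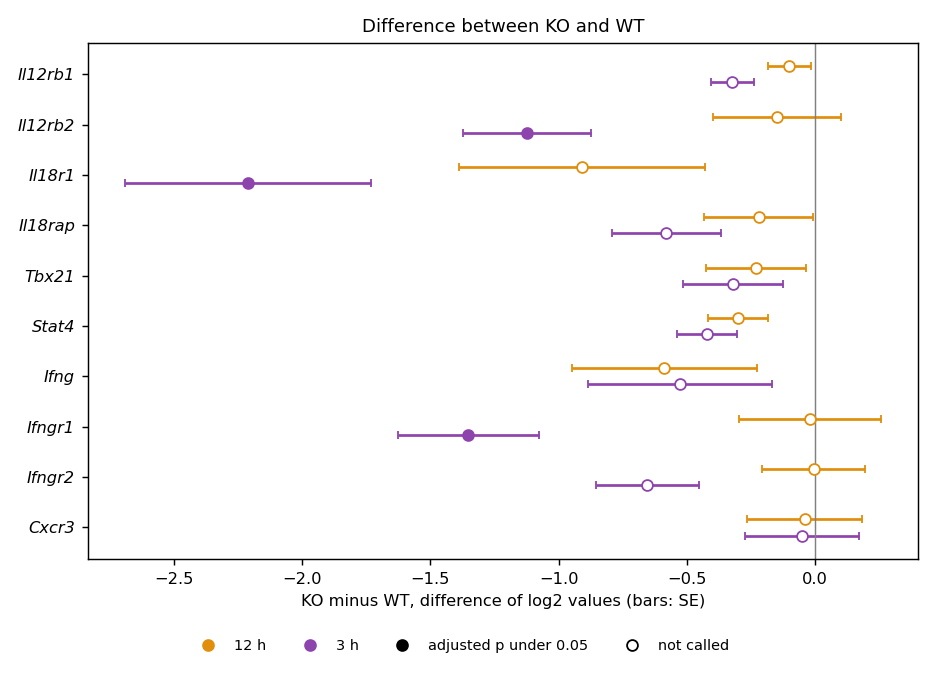
KO minus WT difference of log2 values (x axis) for each of the 10 genes (rows), at 12 h and 3 h; bars are the SE from limma and filled points passed the adjusted p threshold. At 3 h Il18r1 (-2.21), Ifngr1 (-1.35) and Il12rb2 (-1.12) are filled, and at 12 h no point is.

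Whether the genotype difference changed with time was tested as the KO minus WT difference at 12 h less that at 3 h. No member and no other gene of the 12436 was called (0%). Among the members, the unadjusted limma p was lowest for Ifngr1, Il12rb2 and Ifngr2. They stood at ranks 58, 177 and 373 by p among the 12436 genes. Ifngr1 had 1.33 ± 0.39 (limma adjusted p = 0.728) and Il12rb2 had 0.98 ± 0.35 (limma adjusted p = 0.987). Il18r1 had 1.30 ± 0.68 (limma adjusted p = 0.998). The call at 3 h and its lack at 12 h therefore do not show by themselves that the genotype difference changed. Without WT replicate 2 at 3 h, the value of Ifngr1 was 1.80 and was called (limma adjusted p = 0.00336), the one alternative of 22 in which a member was called.

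Most members also changed with time. In WT cells, 9 of the 10 members were called, 2 higher and 7 lower at 12 h than at 3 h, where 67.9% of all tested genes were called, 34.3% higher and 33.6% lower. In KO cells 7 of the 10 were called, 3 higher and 4 lower, where 68% of all tested genes were called, again 34.3% higher and 33.6% lower. A share of 7 in 10 is close to that background. The median change was -0.60 in KO and -1.21 in WT.

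The regulators moved in opposite directions. Tbx21 averaged 8.59 ± 0.48 at 12 h against 12.64 ± 0.065 at 3 h in KO (SD, n = 3 each), and 8.82 ± 0.39 against 12.96 ± 0.053 in WT. It fell 16.6-fold in KO (-4.05 ± 0.19, limma adjusted p = 6.75e-11) and 17.6-fold in WT (-4.14 ± 0.19, limma adjusted p = 5.4e-11), the largest change of the set in both genotypes. Stat4 averaged 11.22 ± 0.049 at 12 h against 9.97 ± 0.26 at 3 h in KO, and 11.52 ± 0.034 against 10.40 ± 0.21 in WT. It rose 2.37-fold in KO (limma adjusted p = 1.38e-07) and 2.17-fold in WT (limma adjusted p = 4.42e-07). The transcript of the IL-12 transducer was thus higher, and that of T-bet lower, at the later time.

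The chains of the IL-12 receptor moved apart in WT. Il12rb1 rose 2.84-fold in KO (limma adjusted p = 3.86e-10) and 2.43-fold in WT (limma adjusted p = 2.25e-09). Il12rb2 fell 2.30-fold in WT (-1.20 ± 0.25, limma adjusted p = 0.000493), and its change in KO was -0.22 ± 0.25 (limma adjusted p = 0.440, not called). The shared chain was thus higher and the inducible chain lower at 12 h in WT. Il18r1 fell 4.88-fold in WT (-2.29 ± 0.48, limma adjusted p = 0.000521), and in KO it was -0.99 ± 0.48 (limma adjusted p = 0.0791). The KO change was called without KO replicate 1 at 3 h (limma adjusted p = 0.0192) and after median centring (limma adjusted p = 0.0462). Il18rap fell 2.23-fold in KO (limma adjusted p = 0.000164) and 2.87-fold in WT (limma adjusted p = 1.08e-05).

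Ifngr1 fell 1.96-fold in WT (-0.97 ± 0.28, limma adjusted p = 0.00547), while its change in KO was 0.36 ± 0.28 (limma adjusted p = 0.258, not called). Its 3 KO values at 12 h were all above its 3 KO values at 3 h. The KO change was called with only the compared groups fitted (limma adjusted p = 0.0176) and without WT replicate 2 at 3 h (limma adjusted p = 0.0306). Ifngr2 rose 1.65-fold in KO (0.73 ± 0.20, limma adjusted p = 0.00451), and in WT its change was 0.08 ± 0.20 (limma adjusted p = 0.747), of a sign that turned under several alternatives. Ifng fell 2.42-fold in KO (limma adjusted p = 0.00513) and 2.32-fold in WT (limma adjusted p = 0.00704). Cxcr3 fell 2.91-fold in KO (limma adjusted p = 1.45e-05) and 2.93-fold in WT (limma adjusted p = 1.35e-05), almost the same size in both genotypes. The KO and WT changes of a gene differ by the interaction value above, which was called for no member.

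**Figure D4:**
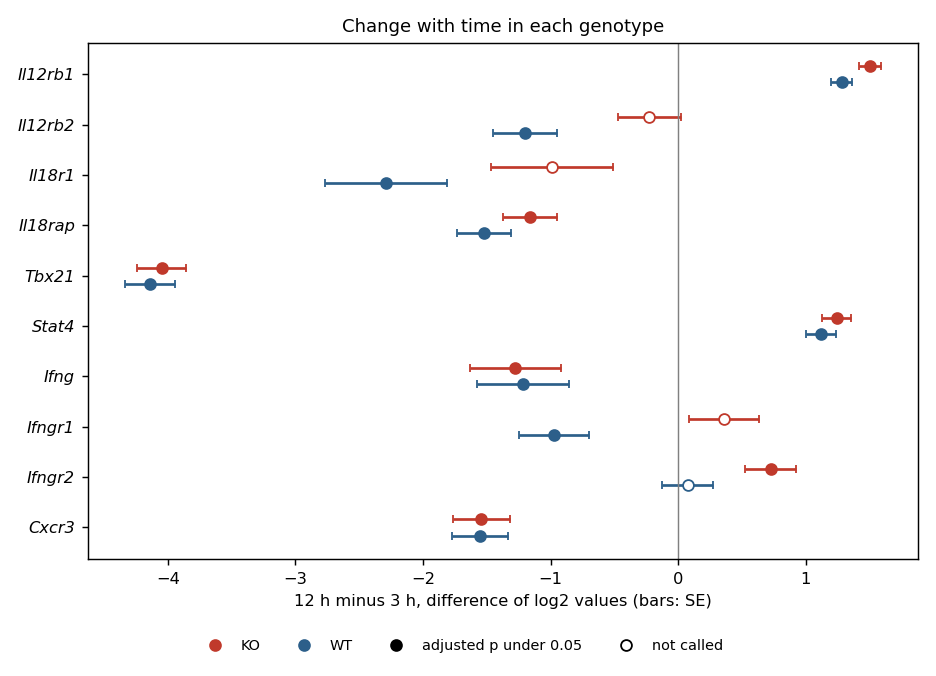
Difference of log2 values, 12 h minus 3 h (x axis), for each of the 10 genes (rows) in KO and WT; bars are the SE from limma and filled points passed the adjusted p threshold. Tbx21 lies near -4 in both genotypes, Il12rb1 and Stat4 lie above 0 in both, and Il12rb2, Il18r1 and Ifngr1 are filled in WT and open in KO.

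Levels can be compared between genes only per length, here as the group mean less the log2 of the gene's exon bases in kb (GENCODE annotation of GRCm38). At 3 h the order in KO was Tbx21 (11.32), Cxcr3 (10.44), Il12rb1 (10.13), Stat4 (8.02), Ifngr1 (7.90), Ifng (7.36), Ifngr2 (6.06), Il12rb2 (5.29), Il18r1 (2.90) and Il18rap (2.47). In WT at 3 h it was Tbx21 (11.64), Cxcr3 (10.49), Il12rb1 (10.45), Ifngr1 (9.25), Stat4 (8.44), Ifng (7.89), Ifngr2 (6.72), Il12rb2 (6.41), Il18r1 (5.11) and Il18rap (3.05). At 3 h, Cxcr3 and Il12rb1 in WT lie closer than the SD of either. The same holds for Ifngr2 and Il12rb2 in WT and for Stat4 and Ifngr1 in KO, so the order within these pairs is not resolved. At 12 h Il12rb1 stood highest, at 11.63 in KO and 11.73 in WT, and Tbx21 was at 7.27 in KO and 7.50 in WT. The 2 IL-18 receptor genes were lowest in all 4 groups.

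Genes of the receptor signalling paths and of other lists related to TH1 cells were compared between the genotypes in the same way. The lists below were taken from textbook roles, but they were chosen with earlier results of these data known. Their counts are set beside the same background shares of 1.05% at 3 h and 0.667% at 12 h, as a description. Of 10 called list genes followed at 3 h, 0 held under all 22 alternatives, and of 12 at 12 h, 3 did (Runx1, Id2 and Maf). Of 19 genes of IL-12 and IL-18 receptor signalling, 1 was lower at 3 h and the median was 0.02. This was Mapk14, the p38α kinase (11.35 in KO and 11.66 in WT, -0.31 ± 0.07, limma adjusted p = 0.0389), a call lost in 9 of 12 fits that left out 1 library, all but those without replicate 1 of KO or WT at 12 h or WT replicate 2 at 3 h. At 12 h 1 was higher: Gadd45g, an activator of p38 signalling in TH1 cells, at 1.38 ± 0.20 (limma adjusted p = 0.00244). With the replicate block 2 genes of this list were called at 12 h, 1 higher and 1 lower. Of 10 genes of IFN-γ receptor signalling, none was called at either time. Among them Jak2 differed by -0.16 ± 0.09 at 3 h.

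Genes that respond to IFN-γ included lower members at 3 h. Of the 24 on the list 22 were tested, 3 were called lower and 0 higher, 19 had negative differences, and the median was -0.22. With the replicate number as a block, 5 were called lower. All 3 called genes encode guanylate-binding proteins, GTPases of cell-intrinsic defence. Gbp2 averaged 10.50 in KO and 12.23 in WT (-1.73 ± 0.27, limma adjusted p = 0.00709). Its call was lost with no trend in the prior and with no filter on low values. It held in all 12 fits that left out 1 library. Gbp3 differed by -0.99 ± 0.21 (limma adjusted p = 0.0362) and Gbp5 by -0.84 ± 0.18 (limma adjusted p = 0.0410), and these calls were lost in 7 of those fits for Gbp3 and 9 for Gbp5, among them each fit without replicate 1 or 2 of KO or replicate 1 or 3 of WT at 3 h. At 12 h 1 of the 22 was called, Irf8, an interferon-regulated transcription factor, higher by 0.86 ± 0.12 (limma adjusted p = 0.00222), with a list median of -0.04. With time, 19 of the 22 fell in each genotype, where 33.6% of all tested genes fell in each, with list medians of -1.52 in KO and -1.92 in WT. Iigp1, an immunity-related GTPase, changed by -6.60 ± 0.33 in KO and -6.23 ± 0.33 in WT, and Socs1, the feedback inhibitor of the IFN-γ receptor, by -2.73 ± 0.19 in KO and -3.31 ± 0.19 in WT.

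Of 14 other transcriptional regulators linked to TH1 cells, 12 were tested. At 3 h 2 were higher in KO, Runx1 by 0.31 ± 0.06 (limma adjusted p = 0.0198) and Bhlhe40 by 0.26 ± 0.05 (limma adjusted p = 0.0353), with a median of -0.12. The call of Runx1 was lost without replicate 1 or 3 of either genotype at 3 h, and that of Bhlhe40 without any KO library or WT replicate 3 at 3 h, KO replicate 2 at 12 h, or WT replicate 2 or 3 at 12 h. RUNX1 is a T cell transcription factor and BHLHE40 sustains cytokine output of helper T cells. At 12 h both were higher again, Runx1 by 0.50 ± 0.06 (limma adjusted p = 0.000291) and Bhlhe40 by 0.32 ± 0.05 (limma adjusted p = 0.00782; lost without WT replicate 1 at 12 h). Id2, an inhibitor of E proteins, was also higher at 12 h, by 0.85 ± 0.09 (limma adjusted p = 0.000119). The 2 higher genes of 3 h thus went the other way from the receptor genes. Of 11 regulators that oppose TH1 genes, 1 was called higher at 3 h, and with the replicate block 1 was higher and 1 lower. At 12 h 4 were called higher, among them Maf (1.30 ± 0.16, limma adjusted p = 0.000672), Ahr (1.32 ± 0.19, limma adjusted p = 0.00222) and Rora (1.16 ± 0.18, limma adjusted p = 0.00347). MAF, AHR and RORα are known regulators of TH17 and related cells.

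Of 19 TH1 effector and homing genes, 18 were tested, and at 3 h 2 were called lower, with a median of -0.39. Ccr2, a chemokine receptor of antigen-experienced T cells, averaged 3.83 in KO and 5.86 in WT (-2.03 ± 0.37, limma adjusted p = 0.0198), and its call was lost without KO replicate 1 or 2 or WT replicate 1 or 3 at 3 h. Cd226, an activating receptor, differed by -0.59 ± 0.13 (limma adjusted p = 0.0399), a call lost in all 12 fits that left out 1 library. At 12 h Cd226 was lower again, by -0.73 ± 0.13 (limma adjusted p = 0.0105). Lta, which encodes lymphotoxin α, was higher by 0.52 ± 0.10 (limma adjusted p = 0.0212), and Xcl1, a chemokine, by 1.48 ± 0.29 (limma adjusted p = 0.0252). Each of these 3 calls at 12 h was lost in 4 of 12 fits that left out 1 library: without KO replicate 1 or 3 or WT replicate 1 or 2 at 12 h for Cd226 and Lta, and without KO replicate 1 or 3 or WT replicate 2 or 3 for Xcl1.

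**Figure D5:**
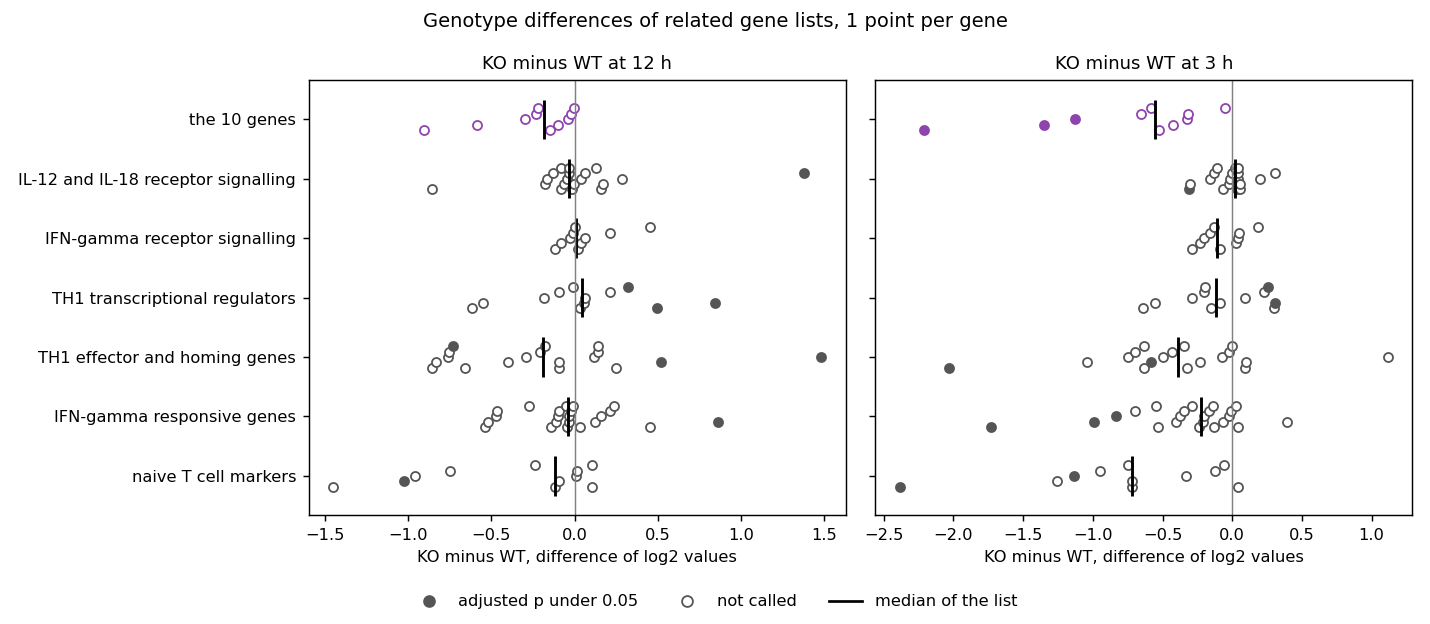
KO minus WT difference of log2 values (x axis) for the 10 genes and the tested members of 6 related lists (rows), at 12 h (left) and 3 h (right); each point is a gene, filled where called, and vertical bars are list medians. The 10 genes have a median of -0.18 at 12 h and -0.55 at 3 h. The IL-12 and IL-18 signalling genes have a median of -0.03 at 12 h and 0.02 at 3 h, with Gadd45g filled at 1.38 at 12 h.

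Markers of other T cell states also differed between the genotypes at 3 h. Of 11 naive T cell markers 2 were called lower, among them S1pr1 (the receptor for exit from lymph nodes, -2.39 ± 0.42, limma adjusted p = 0.0160), with a median of -0.72. With the replicate number as a block, 5 of the 11 were called lower. The call of S1pr1 was lost without KO replicate 1 or WT replicate 3 at 3 h. It was also lost with no trend in the prior and with no filter on low values. The summed level of the naive markers was 16.86 to 16.90 in KO and 16.95 to 17.31 in WT at 3 h. The 12 antigen-experienced markers, which include Ccr2, had a summed level of 13.58 to 13.73 in KO and 13.62 to 13.88 in WT at 3 h. Such a sum is set mostly by the highest genes of a list, here Itgb1 (13.26 in KO and 13.22 in WT at 3 h) for the antigen-experienced markers. Gene by gene, 9 of the 11 antigen-experienced markers tested had negative differences at 3 h, with a median of -0.38, and 1 (Ccr2) was called lower. Of the naive markers, 10 of 11 had negative differences. Markers of both states thus had mostly lower values in KO at 3 h, though the antigen-experienced sums overlapped. The markers for gamma-delta T and NKT cells, 5 of 8 with a row used here and 4 of these 5 under the filter, summed to 4.42 to 5.06 in KO and 5.22 to 5.81 in WT at 3 h. The 1 gene of that list above the filter was Blk, a kinase also of B cells, at 4.24 in KO and 5.11 in WT, and its difference of -0.87 ± 0.32 was not called (limma adjusted p = 0.331). Markers of CD8 T and NK cells summed to 10.37 to 10.82 in KO and 10.61 to 10.76 in WT at 3 h, with 5 of 11 under the filter and 1 at 0. B cell markers summed to 8.98 to 9.30 in KO and 9.29 to 9.54 in WT, and myeloid and dendritic cell markers to 9.03 to 9.21 in KO and 8.83 to 9.02 in WT. No marker of these last 4 lists was called at 3 h or 12 h. The sums that did not overlap at 3 h were lower in KO for naive and for gamma-delta T and NKT markers and higher in KO for myeloid markers. At 12 h other sums did not overlap, all lower in KO. Antigen-experienced markers summed to 13.87 to 13.98 in KO and 14.03 to 14.10 in WT, CD8 T and NK cell markers to 9.48 to 9.75 in KO and 9.84 to 9.89 in WT, and B cell markers to 8.28 to 8.55 in KO and 8.61 to 8.95 in WT at 12 h. The sums of the other lists overlapped at 12 h. The part of such cells in the receptor differences was not tested, and in bulk RNA fewer cells of a type and less RNA per cell cannot be told apart.

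Across the 12 libraries, with each value taken as its deviation from the mean of its time, the 6 cytokine receptor genes had Pearson's r with each other from 0.474 (Il12rb1 with Il18rap) to 0.914. The r was 0.914 between Il12rb2 and Ifngr1, 0.906 between Il18r1 and Stat4, 0.884 between Il18r1 and Il18rap, and 0.862 between Ifngr1 and Ifngr2. Cxcr3 had r between -0.16 and 0.39 with the other 9 genes. These values hold the genotype difference and the shared libraries within them and are given as descriptions. The same measure was ranked over the tested genes, leaving out the 10 members and symbols of gene models, clones and antigen receptor segments. Il12rb2 was then most like Calcoco1 (r = 0.962), Cdkn1b (0.954), Gbp2 (0.952) and Ikbke (0.950). Il18r1 was most like Sp100 (r = 0.971), Trim34a (0.969), Appl2 (0.955) and Dap (0.947), and Ifngr1 most like Ctdsp2 (r = 0.976), Lipa (0.973), Cnp (0.970) and Nipal3 (0.969).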

How the data were processed

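Per the labels, the authors deposited normalised log2 expression values. The submitters' processing notes name Trim Galore, STAR, featureCounts, DESeq2 and mm10; versions, options, annotation and the transform were not given in the sources used here. Values have the form of a regularised log: 5663 rows were at 0 in all 12 libraries, 0 rows in only some, and 3989 rows had a negative mean. Differences of low genes are then understated, and no counts, depth or counting interval can be had. All 12 columns matched 1 title each, and 0 were left unmapped. Per the labels' protocols, libraries were made with the TruSeq kit V2, which does not mark strand, so reads of overlapping genes could not be told apart.

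In R 4.3.3 with limma 3.58.1, group means were fitted over all 12 libraries with a prior that followed the mean level (eBayes with trend), after a filter at a mean of at least 3. Tests were two-sided, with Benjamini-Hochberg adjustment over the 12436 genes, 5 comparisons, and 22 alternatives, 1 of them added after seeing the data. The fit was tested on simulated data. Folds are log2 differences raised back to base 2. A summed level is the log2 of the sum of unlogged values over a list. All members were named, with called genes of each list by largest change; the members, lists and named genes were chosen with earlier results of these data known. Some called list genes are not reported here by name, and counts include them. Same-numbered KO and WT libraries deviated from their group means together (r = 0.194, 0.402 and 0.347 at 3 h, and 0.175, 0.500 and 0.186 at 12 h), so the numbers were taken as pairs in the alternative with a replicate block. Libraries with different numbers had r from -0.32 to 0.01 at 3 h and from -0.30 to 0.15 at 12 h. The highest r at each time was that of replicate 2, the libraries that go against the female label. The part of sex in these r values was not tested. Positions are from GENCODE on GRCm38, the assembly of mm10.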

Additional observations from a re-analysis of the deposited data

How the results depend on the processing

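Leaving out 1 library at a time, called members ran 0 to 5 at 3 h (main 3), 0 to 1 for the difference between the times (main 0, Ifngr1 without WT replicate 2 at 3 h), and all called genes ran 22 to 261 at 3 h (main 130), 49 to 102 at 12 h (main 83) and 0 to 28 for the difference between the times (main 0). With no trend in the prior, members called at 3 h were 0 and all called genes 9 at 3 h and 39 at 12 h. With no filter on low values they were 0, 14 and 40. With only the compared groups they were 0 and 32 at 3 h, and at 12 h 1 member (Stat4) was called. With library weights they were 0, 54 and 167. The replicate block gave 4 members and 200 genes at 3 h and 114 genes at 12 h; beside Il12rb1 at 3 h it added the KO time change of Il18r1 (limma adjusted p = 0.0307), where same-numbered KO libraries had r = 0.0637, 0.368 and 0.0892 and so did not pass the pairing check. Without the 4 replicate 2 libraries, 22 genes were called at 12 h, and 26 with the replicate block. The cause of these shifts was not tested. Of 1095 alternative values of members, 1007 kept direction and call, 36 lost the call, 12 gained one and 40 turned sign; of 1141 for named list genes, 990 kept both, 151 lost the call and 0 turned sign. Signs turned only for differences that were not called. With library weights Cxcr3 was 0.060 at 3 h, Ifngr2 0.046 at 12 h, and the differences between the times -0.0075 for Tbx21 and -0.28 for Cxcr3, which median centring put at -0.013. Without the replicate 2 libraries, that of Ifng was 0.033 with or without the block, and the WT time change of Ifngr2 -0.21 in both fits, -0.12 after quantile normalization and -0.031 after median centring. Leaving out 1 library gave -0.20 to 0.069 for Cxcr3 at 3 h and -0.28 to 0.23 at 12 h, -0.16 to 0.050 for Ifngr1 (with the fits without the replicate 2 libraries) and -0.11 to 0.090 for Ifngr2 at 12 h, -0.19 to 0.30 for Tbx21, -0.22 to 0.28 for Cxcr3, -0.53 to 0.23 for Ifng and -0.010 to 0.25 for Stat4 in the difference between the times, and -0.11 to 0.33 for the WT time change of Ifngr2. Median centring moved the median of all genes by -0.13 in the KO time comparison and by -0.11 in the WT one. Depth is unknown, and precision rests on 3 libraries a group.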

Other observations

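Genes beside the members gave values that belong to none of the comparisons above. Il1rl1, which encodes the IL-33 receptor chain and ends 134 bases from Il18r1, averaged 2.28 in KO and 2.20 in WT at 3 h, under the filter. Il23r, which shares IL12RB1 as partner and lies 46639 bases from Il12rb2, averaged 0.49 in KO and 0.45 in WT at 12 h, and 0.08 in KO and 0.07 in WT at 3 h. Il1r1, the IL-1 receptor gene, averaged 5.41 ± 0.24 in KO and 4.88 ± 0.052 in WT at 12 h (SD, n = 3 each). Ifnar1, a chain of the type I interferon receptor 36536 bases from Ifngr2, averaged 11.29 ± 0.068 in KO and 11.49 ± 0.22 in WT at 3 h, and its difference of -0.20 ± 0.09 was not called (limma adjusted p = 0.529). Gadd45a, the annotated neighbour of Il12rb2, averaged 5.71 in KO and 6.34 in WT at 3 h, a difference of -0.63 ± 0.30 that was not called (limma adjusted p = 0.554).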
